A study of Apostichopus japonicus with 3 samples.

Results

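The control library of the sea cucumber Apostichopus japonicus was described on its own, as the composition of messenger RNA in the tissue of animals held in natural light (about 100 lux). It is 1 of the 3 libraries of the study and was chosen by its label. The other two are the dark library, from a tank left fully dark under a shade cloth for 2 h, and the light library, from animals exposed for 2 h to strong light of about 2000 lux. The animals of all 3 groups were drawn at random from the same set of animals, and no other treatment is named. The control library held 1570290 uniquely assigned reads, the dark library 1698268 and the light library 1644816. With 1 library per group no test between groups was possible, and how many animals were pooled is unknown here. The reads fall on isotigs, which are transcripts assembled without a genome, and 19435 of the 21290 isotigs of the series had at least 1 control read. Each isotig was assigned to the first KEGG orthology (a group of proteins of like function in different species) that the deposited table lists for it, and 3355 of the 3418 orthologies of the series had control reads. The labels disagree on the tissue: the tissue field, title and RNA protocol say body wall and the source field says intestine, so the reads were also sorted into lists of proteins typical of either tissue.

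The body wall of a sea cucumber is mostly a thick dermis of collagen fibres in a proteoglycan matrix, covered by a thin epidermis and backed by muscle. It holds small calcareous ossicles, nerve fibres and wandering coelomocytes, the immune cells of the body cavity. The dermis is known for changing its stiffness within short times under nervous control. The intestine is a thin tube whose lining secretes digestive enzymes and takes up nutrients, and it too has a layer of connective tissue, muscle and coelomocytes, so matrix, muscle and immune transcripts are not particular to the body wall. Transcripts of digestive enzymes, brush border proteins and nutrient carriers are those in which the tissues should differ most.

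Reads of the control library were concentrated on few isotigs. A set of 4 isotigs held 10% of the control reads, 47 held 25%, 390 held 50% and 5761 held 90%. The corresponding numbers were 2, 25, 205 and 4655 in the dark library and 4, 50, 404 and 5814 in the light library. The control and light libraries were thus spread alike, and the dark library was more concentrated at every level. Most isotigs rested on little evidence, with a median of 16 control reads per isotig and 1765 isotigs with 1 control read. A total of 601 isotigs had reads in the control library alone, but these held 856 reads together and at most 11 each. The precision of a control share is set by counting, and for an orthology with 0 control reads the limit was set at 3 reads, or 0.000191% of the library, and the exact interval ends at 0.000235%. The reads carry no molecular identifiers, so every interval given here is an exact 95% Clopper-Pearson interval that covers counting error only.

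**Figure D1:**
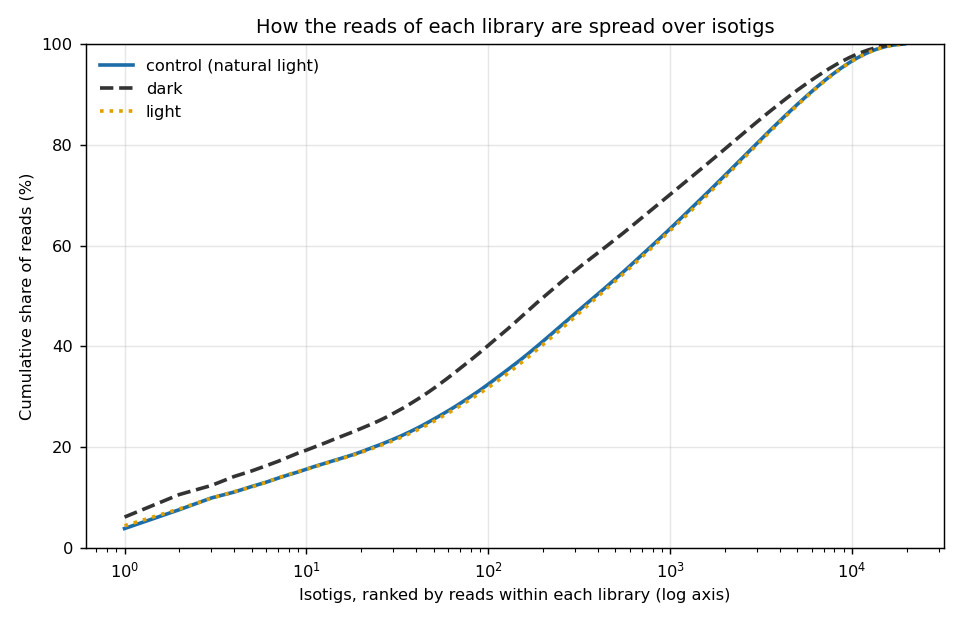
Cumulative share of reads (y axis, percent) against the number of isotigs (x axis, log scale), with isotigs ranked by reads within each library, 1 line per library. The control and light lines lie on each other, with 50% of reads on 390 and 404 isotigs, while the dark line lies above them and reaches 50% at 205 isotigs.

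Named gene products accounted for about as many control reads as unnamed ones. Isotigs with a KEGG orthology were 36.0% of the isotigs with control reads and held 51.8% of the control reads (51.7 to 51.9), against 46.9% of the dark reads and 53.7% of the light reads. Isotigs with a Gene Ontology (GO) term and no orthology added 2.92% of control reads. The remaining 45.3% of control reads (45.2 to 45.3) fell on 11758 isotigs with neither, against 50.8% in the dark library and 43.5% in the light library. These unannotated isotigs were shorter, with a median of 688 bases against 1053 bases for those with an orthology. Orthologies rest on sequence similarity to other animals: for 2561 isotigs (36.6% of those with an orthology) the best hit was in the purple sea urchin Strongylocentrotus purpuratus, and 919 isotigs with 3.36% of control reads had a hit weaker than an E-value of 1e-10. All shares below are of all reads of a library, so nothing is said of what the unannotated reads encode.

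**Figure D2:**
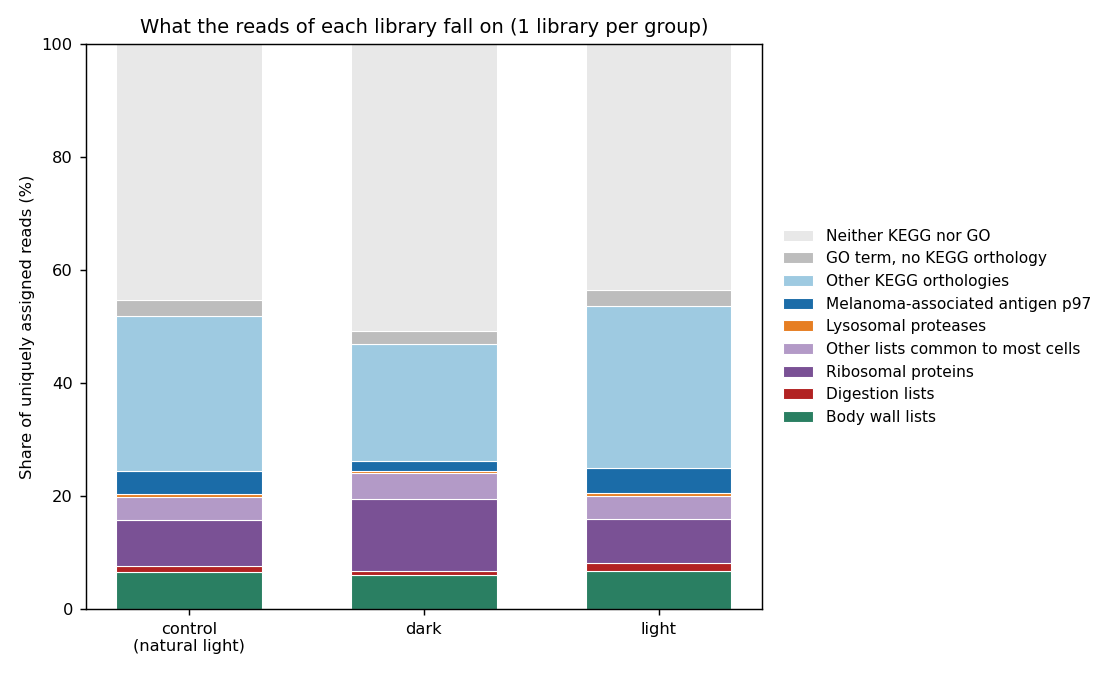
Share of uniquely assigned reads (y axis, percent) in the control, dark and light libraries, 1 bar per library, divided by the class of the isotig: the protein lists described in the text, melanoma-associated antigen p97, other KEGG orthologies, GO terms without an orthology, and neither. In the control library the body wall lists take 6.60%, the digestion lists 1.16%, ribosomal proteins 8.02% and unannotated isotigs 45.3%.

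The 5 isotigs with most control reads held 12.2% of the library, and only 2 of them carried a name. Isotig13120, named melanoma-associated antigen p97, had 60978 control reads on 3038 bases, against 30465 reads in the dark library and 72889 in the light library. Isotig24195, without any annotation, had 58663 control reads on 546 bases, against 104615 in the dark library and 55066 in the light library. Per length this short isotig was the more abundant of the pair, at 68421 RPKM (reads scaled to isotig length and library total) against 12782 RPKM for isotig13120. Isotig22175 (36555 control, 75866 dark and 34721 light reads) and isotig10678 (17409, 30216 and 15320 reads) had no annotation either. Isotig20045, a fibrillar collagen, had 18286 control reads, 17471 dark reads and 21375 light reads. The 3 unannotated isotigs together took 7.17% of control reads (7.13 to 7.21), 12.4% of dark reads and 6.39% of light reads, so each was highest in the dark library, while the p97 isotig was lowest there. Uniquely assigned reads covered 99.64% of isotig13120 but 68.31% of isotig22175 and 45.55% of isotig10678.

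The 25 orthologies with most control reads held 14.1% of the library and 27.3% of the reads with an orthology. The first was melanoma-associated antigen p97, also called melanotransferrin, a membrane-bound relative of the iron carrier transferrin in mammals. It had 61488 control reads, 30908 dark reads and 73420 light reads, or 3.92% (3.89 to 3.95), 1.82% and 4.46% of the libraries. It led the control and light libraries and was second to fibrillar collagen in the dark library. One of its 3 isotigs carried 99.2% of these reads, with an E-value of 7e-42. In sea urchins the major yolk protein, made in gut and gonad, also belongs to the transferrin family, and the orthology does not tell such relatives apart.

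Fibrillar collagen, the main fibre of the dermis, came second with the orthology collagen type I/II/III/V/XI alpha. It had 32586 control reads on 4 isotigs, 33363 dark reads and 37922 light reads, or 2.08% (2.05 to 2.10), 1.96% and 2.31% of the libraries. All 3 libraries lay close together here. Per length it was the most abundant orthology of the control library, at a summed 20542 RPKM against 12916 RPKM for p97. Tenascin, a glycoprotein of connective tissue, was the other matrix protein among the 25, with 6424 control reads, 7870 dark reads and 6390 light reads on 24 isotigs in control. Its leading isotig13825, with 51.8% of its control reads, had no other orthology listed. The tenascin isotigs isotig19241 and isotig02710 also had hits to ficolin, and isotig03771, assigned to ficolin with 2114 control reads, also had one to tenascin. These names therefore overlap in part.

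Proteins of immune recognition were the next largest group among the leading orthologies. Mannose receptor C type, a family of carbohydrate-binding lectins, had 15385 control reads, 18928 dark reads and 15144 light reads. Ficolin, a fibrinogen-related lectin that starts complement in mammals, had 11072 control reads on 102 isotigs, 12001 dark reads and 12133 light reads. Complement component 4 had 7046 control reads, 8259 dark reads and 6378 light reads, and the second hit of its leading isotig was complement component 3, a protein of the same family. The 3 orthologies held places 3, 4 and 6 by reads, and their shares in control were within 1.5-fold of both other libraries. Many isotigs of different sequence share these names, so a lectin orthology here is a family and not 1 gene.

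Carriers of lipid and vitamins among the 25 were cubilin and apolipoprotein B. Cubilin, an endocytic receptor of the mammalian kidney and small intestine, had 6665 control reads, 4089 dark reads and 7167 light reads. Apolipoprotein B, the core of lipoprotein particles made by the vertebrate liver and intestine, had 5739 control reads, 1251 dark reads and 7552 light reads. Both were lowest in the dark library. A von Willebrand factor orthology, named for a clotting protein of vertebrate blood, had 5378 control reads, 1942 dark reads and 4391 light reads, but 91.0% of its control reads had a hit weaker than 1e-10. The same held for 83.4% of the 5298 control reads of Notch, a cell surface receptor of developmental signalling, which had 10640 dark reads and 6135 light reads.

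The remaining orthologies of the 25 had varied roles. Cofilin, which severs actin filaments, had 7813 control reads on 1 isotig. Protein disulfide-isomerase A1, an enzyme of collagen and secretory protein folding, had 4927, and heat shock protein 90kDa beta, a chaperone, had 3593. The beta-2-like 1 G protein subunit known as RACK1, a scaffold on the ribosome, had 4497 reads, and the ribosomal proteins L6e, L13e and S4e had 3688, 3630 and 3372 control reads. Cytochrome c oxidase subunit 1, encoded in the mitochondrial genome of animals, had 4456 control reads, 8352 dark reads and 4443 light reads, and unique reads covered 44.14% of its isotig. Activating transcription factor 5 had 4493 control reads, betaine-homocysteine S-methyltransferase, an enzyme of methionine synthesis, had 4441, calmodulin, a calcium sensor, had 4423, and tubulin beta, of microtubules, had 4318. Dual oxidase, which releases hydrogen peroxide at epithelial surfaces, had 3885 control reads, 2217 dark reads and 5725 light reads. Legumain, a lysosomal protease, had 3629 control reads, and myosin heavy chain, the motor of muscle and of other cells, had 3524 reads on 57 isotigs.

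**Figure D3:**
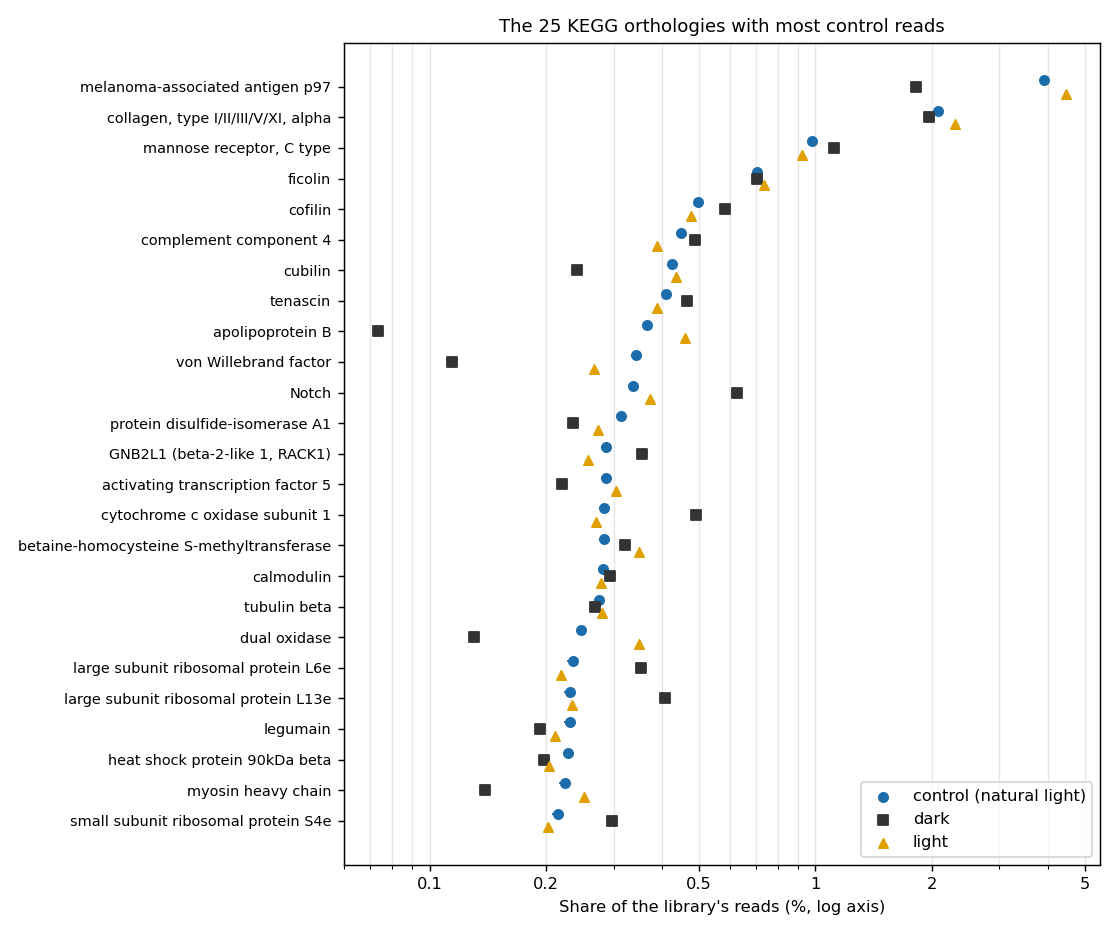
Share of each library's reads (x axis, percent, log scale) for the 25 KEGG orthologies with most control reads, ordered by control share; circles are control with 95% counting intervals, squares dark and triangles light, 1 library each. The circles and triangles stay within 1.5-fold of each other in all 25 rows, while the squares of apolipoprotein B (0.0737%), von Willebrand factor (0.114%) and p97 (1.82%) lie at least 2-fold to the left; relative to the median of all orthologies p97 is 1.49-fold higher in control.

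The order of the orthologies depended on whether reads or reads per length were used. Of the 25 leaders by reads, 11 were also among the 25 leaders by summed RPKM, where ribosomal proteins held 11 of the places instead of 3. Long transcripts moved down, and apolipoprotein B, with a leading isotig of 6323 bases, went to place 132 by RPKM. Short transcripts moved up, such as ATP synthase subunit a (F-type H+-transporting ATPase subunit a), with 3371 reads and 3983 RPKM. Control shared 23 of its 25 leaders by reads with the light library and 15 with the dark library, in which 11 of the leading 25 were ribosomal proteins. RPKM was summed over isotigs, so an orthology broken into short pieces receives a larger sum.

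GO terms described the same mix in broader words. The first function and process terms drew mostly on ribosomal proteins, while the first component term did not. An isotig counts under every term listed for it, so shares within a branch add up to more than the whole. Component terms were listed for isotigs with 30.6% of control reads, function terms for 27.2% and process terms for 30.8%. The leading component was intracellular membrane-bounded organelle with 6.39% of control reads, against 5.40% in the dark library and 6.53% in the light library, and cytoplasmic part (3.58%), ribonucleoprotein complex (3.07%) and membrane (2.78%) followed. Intracellular part held 2.67% of control reads, large ribosomal subunit 2.47%, nuclear lumen 2.34%, protein complex 1.71%, cell part 1.42% and intrinsic to membrane 1.29%. Ribosomal proteins supplied 90.7% of the reads under ribonucleoprotein complex, while a collagen isotig (isotig14428) supplied 30.8% of those under intracellular part, although fibrillar collagen is secreted.

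Among functions, structural molecule activity held 6.32% of control reads, against 9.70% of dark reads and 6.18% of light reads. In control 90.8% of those reads came from ribosomal proteins and none from the collagen and matrix list, so the term does not measure the fibres of the dermis. Next came a term for which the table gives no name, with 3.36%, then protein binding (2.81%), binding (2.80%) and nucleic acid binding (2.29%). Nucleoside-triphosphatase activity, RNA binding, metal ion binding, transition metal ion binding and catalytic activity held between 0.843% and 1.41%. The trypsin isotig14072 was the largest source of catalytic activity, with 20.1% of its reads.

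Among processes, gene expression (3.65% of control reads) and translation (3.43%) led, followed by cotranslational protein targeting to membrane (2.39%), nuclear-transcribed mRNA catabolic process (2.38%) and a term without a name in the table (2.34%). Ribosomal proteins supplied between 72.4% and 100% of the reads of these 5 terms. The other leading processes were another unnamed term (2.17%), apoptotic process (1.43%), purine ribonucleotide catabolic process (1.39%), response to stimulus (1.38%) and cellular process (1.27%). The mannose receptor isotig13746 alone gave 40.0% of the reads under response to stimulus and 43.5% of those under cellular process. Single abundant isotigs therefore set several of the leading terms.

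A few tissue terms were looked up after their values had been seen. Phagocytosis held 1.27% of control reads on 19 isotigs, and the mannose receptor isotig13746 gave 43.6% of them. Ossification held 0.925% and fin morphogenesis 0.847%, but the collagen isotig14428 supplied 89.0% and 97.3% of these reads. Extracellular region part held 0.786%, extracellular region 0.708%, proteinaceous extracellular matrix 0.141%, basement membrane 0.0466% and extracellular matrix organization 0.0327%. Myofibril assembly held 0.259%, myofibril 0.103% and muscle contraction 0.0502%. On the gut side, microvillus held 0.128%, of which radixin, a linker of membrane and actin in many cells, gave 73.5%. Brush border held 0.0139% on 3 isotigs, led by a G protein subunit alpha-12 isotig (isotig15155). Digestive system process rested on 1 isotig of aconitate hydratase, a citrate cycle enzyme, with 389 reads, and digestive tract development held 0.0231%. Lysosome held 0.121%. None of the gut terms was led by a digestive enzyme.

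The body wall lists together held 6.60% of control reads (6.57 to 6.64), against 6.12% of dark reads and 6.87% of light reads. They comprise 7 lists with 73 entries, of which 48 had control reads. The collagen and matrix list was the largest, with 3.0% of control reads (2.98 to 3.03), 2.75% of dark reads and 3.32% of light reads over 18 orthologies. Fibrillar collagen made up 69.1% of it, and without that orthology the list held 0.927%. Of its 17 entries 12 had control reads, and fibulin, SPARC, matrilin, versican and elastin had no isotig of that name. Absence of a name says only that no isotig has it as its first hit.

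Basement membrane and proteoglycan members of the matrix list followed at lower counts. Nidogen, a linker of basement membranes, had 1819 control reads, 821 dark reads and 2454 light reads, and 26.9% of its control reads had a hit weaker than 1e-10. Laminin alpha 3/5, a basement membrane scaffold, had 1335 control reads, 1366 dark reads and 1548 light reads. Chondroitin sulfate proteoglycan 4, a membrane proteoglycan, had 943 control reads, 314 dark reads and 1493 light reads. Control lay between the dark and light libraries in nidogen and the proteoglycan, whereas laminin was close in all 3. The list of collagen processing and matrix turnover held 0.286% of control reads, led by the membrane metalloproteinase MMP-24 with 1445 control reads, lysyl oxidase-like protein 2/3/4, which crosslinks collagen, with 911, and MMP-14 with 645. Transglutaminase 1, another crosslinking enzyme, had 555 and the collagenase MMP-13 had 369. No isotig had a first hit named prolyl 4-hydroxylase, TIMP or serpin H1, and lysyl hydroxylase had 1 control read. Subunits filed under another name are not counted in this list, and protein disulfide-isomerase A1 (4927 control reads) was counted with the chaperones.

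Muscle proteins held 0.691% of control reads (0.678 to 0.704), 0.554% of dark reads and 0.758% of light reads. The leaders were large proteins that other cells also use in part. Myosin heavy chain had 3524 control reads, 2368 dark reads and 4126 light reads. Titin, the giant spring protein of striated muscle, had 3009 control reads on 28 isotigs, 3080 dark reads and 3022 light reads. Alpha-actinin had 2559 control reads, 2521 dark reads and 2934 light reads. Filamin (1308 control reads) and myosin light chain kinase (378) completed the leading 5. Proteins confined more closely to the contractile filaments were scarce, with 55 control reads for troponin, 16 for tropomyosin and 5 for myosin light chain. Muscle actin, nebulin, calponin, transgelin, calsequestrin, the ryanodine receptor and the sarcoplasmic calcium pump had no isotig of that name. Cytoplasmic actin beta/gamma 1, which is not in the list, had 1953 control reads.

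Coelomocyte and immune proteins held 2.43% of control reads (2.41 to 2.45), 2.51% of dark reads and 2.35% of light reads, and 10 of 12 entries had control reads. Behind the mannose receptor, ficolin and complement component 4 came complement component 3 with 1811 control reads, 906 dark reads and 1839 light reads, and factor B with 1026 control reads, 944 dark reads and 1136 light reads. Lysozyme and macrophage migration factor had no isotig of that name. Nervous system proteins held 0.168% of control reads over 24 orthologies with control reads. They were led by a calcium channel alpha-2/delta-4 subunit (407 control reads), peptidylglycine monooxygenase, which amidates neuropeptides (373), an invertebrate nicotinic acetylcholine receptor (308), proprotein convertase 2 (241) and synaptotagmin-1, a calcium sensor of synaptic vesicles (236). Hits weaker than 1e-10 made up 41.4% of the control reads of the nervous list and 100% of those of its leading calcium channel subunit. The ossicle list held only carbonic anhydrase (261 control, 358 dark and 311 light reads), and the sea urchin skeletal matrix proteins msp130, SM30 and SM50 had no isotig of that name. Cilia were near the lower end, with 174 control reads for axonemal dyneins, of which 155 belonged to the heavy chain, 11 to light chain 4 and 8 to intermediate chain 1, and no named tektin, radial spoke or intraflagellar transport protein.

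The digestion lists together held 1.16% of control reads (1.14 to 1.17), against 0.653% of dark reads and 1.27% of light reads. They comprise 6 lists with 48 entries, of which 20 had control reads and 8 had at least 100. Of the 3355 orthologies with control reads 1137 had at least 100, though an entry can pool several orthologies. Cubilin and apolipoprotein B, which other epithelia and tissues also make, carried most control reads of the digestion lists. Without both, these lists held 0.368%. None of the 6 gut transcription factor entries (CDX, HNF4, HNF1, FOXA, GATA4/5/6 and PDX1) had an isotig of that name.

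Digestive proteases held 0.217% of control reads, of which trypsin supplied 98.9%. Trypsin had 3366 control reads on 7 isotigs, 3565 dark reads and 3812 light reads, so it was at a like level in all 3 libraries. Its leading isotig14072, with 2668 control reads, had an E-value of 1e-15 and plasminogen, another serine protease, as its second hit, and the trypsin orthology does not separate digestive trypsin from related proteases. Enterokinase, which activates trypsin in the mammalian gut, had 35 control reads, 30 dark reads and 61 light reads. Carboxypeptidase A1 and A2, pancreatic enzymes of mammals, had 1 control read each. Chymotrypsin, pancreatic elastase, carboxypeptidase B, pepsin and gastricsin had no isotig of that name.

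Enzymes of carbohydrate digestion held 263 control reads, or 0.0167%. Alpha-glucosidase, which also occurs in lysosomes, had 129 control reads, 164 dark reads and 110 light reads. Maltase-glucoamylase had 97 control reads, alpha-amylase, the starch enzyme, had 22 and lactase-phlorizin hydrolase 15, and sucrase-isomaltase, trehalase, chitinase and cellulase had no isotig of that name. Lipid digestion held 0.0953%. Phospholipase A2 had 907 control reads, 846 dark reads and 977 light reads, and 68.2% of its control reads had a hit weaker than 1e-10. Pancreatic lipase-related protein 1 had 533 control reads, 607 dark reads and 297 light reads. The lipase-related protein was lowest in the light library. Pancreatic lipase-related protein 2 had 53 control reads and pancreatic triacylglycerol lipase 3.

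Brush border proteins held 455 control reads, or 0.0290%. Intestinal mucin-2 had 203 control reads, of which 42.4% had a hit weaker than 1e-10. Aminopeptidase N, a peptidase of absorptive cells and of other tissues, had 170, alkaline phosphatase 42, gamma-glutamyltranspeptidase 39 and meprin A alpha 1. Villin, dipeptidyl peptidase 4, espin, the cadherin-related proteins and myosin IA had no isotig of that name. Outside the lists, and chosen after its values were seen, advillin, a relative of villin, had 1280 control reads, 855 dark reads and 1509 light reads, and the second hit of its leading isotig13407 was villin 1. Mucin-5B, a mucus protein of mammalian airways that was chosen in the same way, had 1468 control reads, 1041 dark reads and 1169 light reads. Among the carriers of nutrient uptake, the oligopeptide transporter SLC15A1 had 87 control reads, 38 dark reads and 101 light reads. Microsomal triglyceride transfer protein, which loads lipid on apolipoprotein B, had 66 control reads, 26 dark reads and 51 light reads. Liver fatty acid-binding protein 1 had 7 control reads and the sterol carrier NPC1L1 had 1. The sugar carriers SLC5A1, SLC2A2 and SLC2A5, the amino acid carrier SLC6A19 and amnionless had no isotig of that name.

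**Figure D4:**
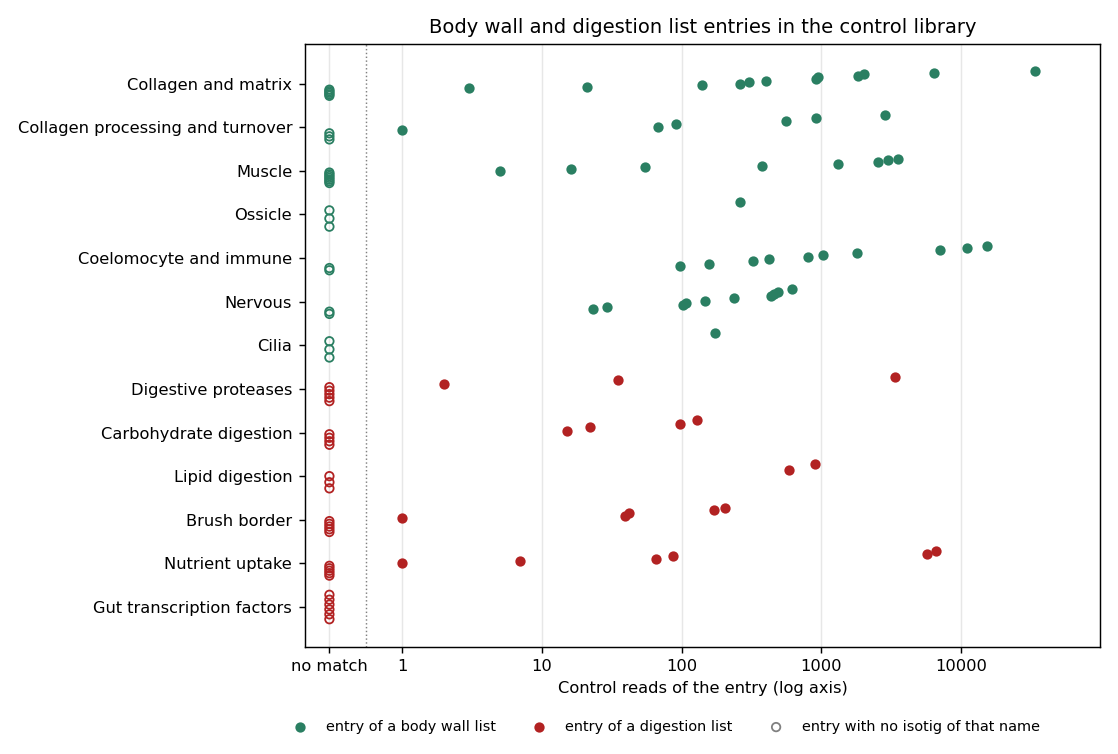
Control reads (x axis, log scale) of every entry of the 7 body wall lists and the 6 digestion lists (rows), 1 point per entry; open circles at the left mark entries with no isotig of that name. Of the body wall entries 37 of 73 lie at 100 reads or more, against 8 of 48 digestion entries. Both counts include entries without an isotig of that name, and an entry can pool several orthologies. Of the 3355 single orthologies with control reads, 1137 had at least 100. The gut transcription factor row holds open circles alone.

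Set against each other, the body wall lists held 5.70 times the control reads of the digestion lists (5.61 to 5.79), 9.38 times in the dark library and 5.43 times in the light library. The body wall lists are also larger, with 85 orthologies on 484 isotigs with control reads, against 23 orthologies on 77 isotigs. The ratio was not scaled to these numbers. Per length the ratio was 11.0 in control, 14.9 in dark and 10.9 in light. Body wall reads exceeded digestion reads in every library, and the size of the excess depended on the members. With the matrix, turnover, muscle and ossicle lists alone it was 3.45 in control, and without cubilin and apolipoprotein B among the digestion members it was 17.9. The lists name proteins that both tissues hold, no library of a known tissue was available for comparison, and body wall and intestine therefore cannot be told apart by these ratios. Within the digestion lists control reads ranged widely, with 6665 for cubilin, 5739 for apolipoprotein B, 3366 for trypsin, 907 for phospholipase A2 and 533 for pancreatic lipase-related protein 1. Intestinal mucin-2 had 203, aminopeptidase N 170, alpha-glucosidase 129, maltase-glucoamylase 97 and SLC15A1 87, while alpha-amylase, lactase, carboxypeptidase A, meprin, NPC1L1 and fatty acid-binding protein had 22 or fewer each. The part of other tissue in the reads was not tested.

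Proteins common to most cells made up 12.2% of control reads, against 17.3% in the dark library and 11.9% in the light library. Ribosomal proteins, with 76 orthologies, held 8.02% of control reads, and the list ran from 25 to 3688 control reads, with a median of 1550.5 against 51 over all orthologies with control reads. Its leaders were L6e, L13e, S4e, L4e (3189 control reads) and L7e (3144). The respiratory chain and ATP synthase held 1.16%, chaperones 1.09%, translation factors 0.771%, actin and tubulin 0.606%, the proteasome 0.264%, histones 0.229% and ubiquitin 0.0236%. Elongation factor 1-alpha, which carries transfer RNA to the ribosome, led the translation factors with 2608 control reads, 4092 dark reads and 1874 light reads, and unique reads covered 18.19% of its isotig. The initiation factors 4G (1811 control reads), 5A (1293) and 4A (1011) and elongation factor 2 (623) came next. Behind cytochrome c oxidase subunit 1 and ATP synthase subunit a, the respiratory list was led by ATP synthase subunits beta (1348) and alpha (1279) and cytochrome c oxidase subunit 6a (410). Tubulin alpha had 3231 control reads and tubulin gamma 18. The chaperones of the endoplasmic reticulum heat shock 70kDa protein 5 and calreticulin had 1939 and 1281 control reads, and heat shock 70kDa protein 1/8 had 908. The proteasome was led by regulatory subunits N2 (399 control reads), N10 (282), T1 (270) and N6 (252) and subunit alpha 3 (287). Histone H1/5 had 1626 control reads, 2968 dark reads and 1675 light reads, while H2A had 1072, H3 had 888 and H2B had 7 control reads. Cathepsins and other lysosomal proteases held 0.562% of control reads, 0.402% of dark reads and 0.556% of light reads, with cathepsin B (2021 control reads), cathepsin L (980), cathepsin F (609) and cathepsin A (511) behind legumain. Ferritin had no isotig of that name.

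The control library stood close to the light library and apart from the dark library. Both comparisons use the same control library, and a lower share can mean fewer cells of a type or less RNA per cell, which cannot be told apart in tissue samples. Against dark, 628 of 2576 orthologies with at least 30 reads over both libraries were at least 2-fold higher in control, which is 24.4%, and 12, or 0.466%, were at least 2-fold lower. Against light, 20 of 2676 orthologies were at least 2-fold higher in control (0.747%) and 26 were at least 2-fold lower (0.972%). The median ratio over all orthologies was 1.44 for control over dark and 0.957 for control over light. Setting that median to 1 changed the split against dark to 169 higher and 203 lower, so direction against dark depends on the scaling.

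Among the 25 leading orthologies, 3 were at least 2-fold higher in control than in dark, and 0 were at least 2-fold lower. Over all orthologies the shares were 24.4% and 0.466%. The 3 were apolipoprotein B with a ratio of 4.96 (4.67 to 5.28), von Willebrand factor with 3.0 and p97 with 2.15. Relative to the median of all orthologies, apolipoprotein B (3.44) and von Willebrand factor (2.08) were still at least 2-fold higher, and p97 was at 1.49. Notch (0.374), L13e (0.393), cytochrome c oxidase subunit 1 (0.400) and L6e (0.462) were at least 2-fold lower. On that scaling 6.56% of all orthologies were at least 2-fold higher and 7.88% lower. Fibrillar collagen had a ratio of 1.06 on the library total and 0.733 relative to the median, so its direction flips with the scaling. Against light, 0 of the 25 were 2-fold apart in either direction, beside 0.747% of all orthologies higher and 0.972% lower. The ratios of the 25 lay between 0.711 for dual oxidase and 1.28 for von Willebrand factor.

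The lists differed from dark by unequal amounts. Ribosomal proteins had a median ratio of control to dark of 0.617, and 76 of 76 lay below the median of all orthologies. On the library total 0 were at least 2-fold higher in control and 1 was lower, beside 24.4% and 0.466% of all orthologies. Relative to the median of all orthologies 68 of 76 were at least 2-fold lower, against 7.88% of all orthologies. The respiratory chain and ATP synthase list had a median of 0.709. On the library total 1 of 61 was at least 2-fold lower, beside 0.466% of all orthologies. Relative to the median of all orthologies 33 of 61 were at least 2-fold lower, beside 7.88%. The collagen and matrix list had a median of 1.58, with 6 of 16 members at least 2-fold higher in control and 1 lower, beside 24.4% and 0.466% of all orthologies. Relative to all orthologies its median was 1.09, with 2 of 16 higher and 1 lower, beside 6.56% and 7.88% of all orthologies. The nutrient uptake list had a median of 2.61 over 4 members, and 3 of them, apolipoprotein B, microsomal triglyceride transfer protein (2.75) and SLC15A1 (2.48), were at least 2-fold higher in control, beside 24.4% of all orthologies. Relative to the median of all orthologies only apolipoprotein B was, and the transfer protein (1.91) and SLC15A1 (1.72) were not. The muscle list had a median ratio of 1.29 over its members, and 0.898 relative to the median of all orthologies. The coelomocyte and immune list had a member median of 1.09, and 0.754 relative to all orthologies, while its summed reads gave a ratio of 0.969 and its 3 most abundant members had ratios of 0.879 (mannose receptor), 0.998 (ficolin) and 0.923 (complement component 4). The direction of both member medians thus flips with the scaling. Ribosomal proteins and the 3 abundant unannotated isotigs together take a larger share of the dark library, and their part in the higher control ratios of other genes was not tested.

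**Figure D5:**
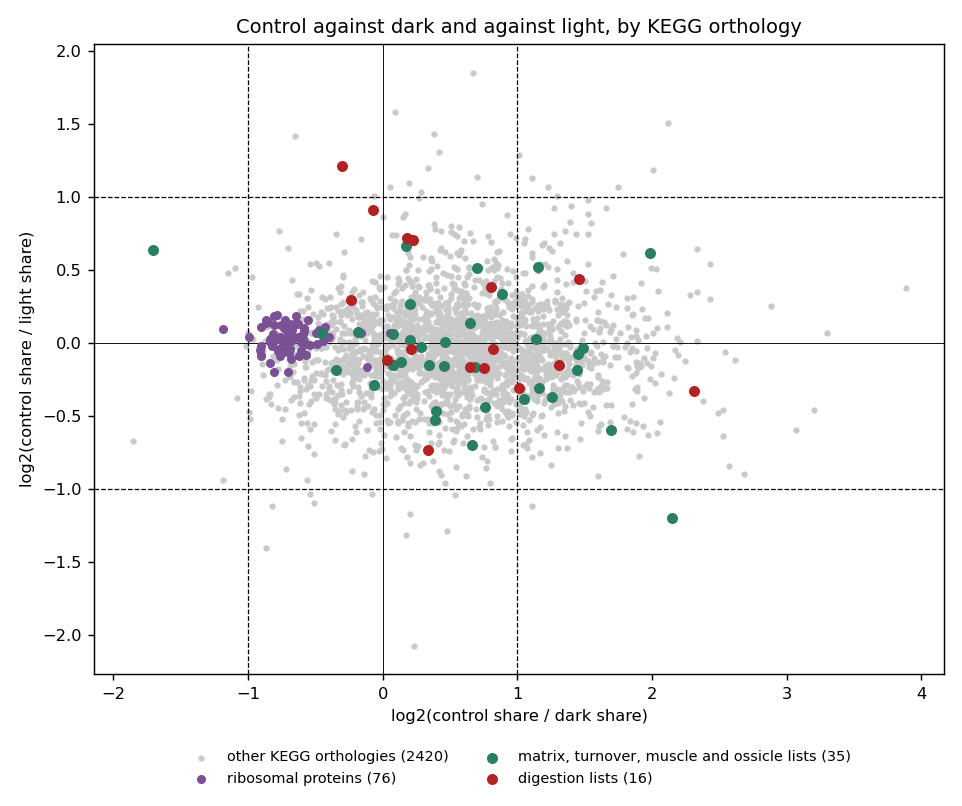
Log2 of the control share over the dark share (x axis) against log2 of the control share over the light share (y axis) for 2547 KEGG orthologies with reads in all 3 libraries; dashed lines mark 2-fold. The 76 ribosomal proteins form a cluster left of 0 on the x axis and near 0 on the y axis, while the points as a whole are shifted to the right. Over the 2576 orthologies with at least 30 reads in control and dark together, which include those plotted, the median control to dark ratio is 1.44. With that median set to 1, 169 of the 2576 orthologies are at least 2-fold higher in control than in dark and 203 lower.

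The largest ratios belonged mostly to less abundant orthologies. Highest in control over dark were epidermal growth factor with 976 control reads and 107 dark reads (ratio 9.86, 8.07 to 12.2), jagged, a Notch ligand, with 89 and 15, and phospholipase C gamma-1, a signalling enzyme, with 136 and 24. The cadherin CELSR2 (flamingo, 187 and 35 reads), apolipoprotein B and the non-receptor tyrosine kinase 2 (114 and 26 reads) followed. The epidermal growth factor name rests on isotig29479 of 225 bases with an E-value of 8e-07. Lowest in control over dark were neurocan, a proteoglycan, with 141 control reads and 497 dark reads (ratio 0.307, 0.253 to 0.371), ribosomal protein L23Ae with 159 and 392, and an orthology without a name in the table, led by isotig03695, with 528 and 1265. The RNA-binding protein LSm3 (41 and 95 reads), L44e (156 and 336) and 20S proteasome subunit beta 6 (51 and 108) were next, and the ratios of the last 2 were 0.502 and 0.511. Hits weaker than 1e-10 made up 100% of the control reads of jagged and 93.6% of those of neurocan. For the orthology without a name the share was 75.4%.

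Against light the highest ratios were smaller than against dark, while the lowest ratio was more extreme (0.238 against 0.307). Highest in control over light were the receptor tyrosine phosphatase D with 77 control reads and 27 light reads (ratio 2.99, 1.90 to 4.82), early growth response protein 1, an immediate-early transcription factor, with 249 and 92, and tryptophanyl-tRNA synthetase with 214 and 83. Angiopoietin-like 4 (246 and 118 reads), pancreatic lipase-related protein 1 (533 and 297) and cytochrome P450 1A1, an enzyme of foreign compound metabolism (109 and 62), came next, with ratios of 2.18, 1.88 and 1.84. Lowest in control over light were ceruloplasmin, a copper protein of vertebrate plasma, with 25 control reads and 110 light reads (ratio 0.238, 0.148 to 0.370), and complement component 4 binding protein alpha with 59 and 163. Collagen type XVIII (37 and 89 reads), hydroxyproline oxidase (39 and 84), alpha-aminoadipic semialdehyde synthase (64 and 126) and lysosomal-associated membrane protein 1/2 (659 and 1295 reads, ratio 0.533) followed. For the receptor tyrosine phosphatase D, the complement component 4 binding protein and the lysosomal-associated membrane protein, 100% of control reads had a hit weaker than 1e-10. These 24 ratios were picked as the extremes of each comparison and are given as a description of these libraries.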

How the data were processed

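Per the labels' protocols, RNA was DNase-treated, selected on oligo(dT) beads, fragmented, primed with random hexamers and amplified by PCR, with no recorded strand marking. CASAVA 1.5 was used, per the submitters' processing notes. The sources used here name no assembler, aligner, annotation search or filter. Per the file headers, each library's table holds counts of uniquely assigned reads per isotig, RPKM and the percent of the isotig covered. RPKM recomputed from the deposited counts, isotig lengths and header totals equalled the deposited values. Reads that match several isotigs are not in these counts, so isotigs with near-identical copies can be too low.

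Reads were summed by the first KEGG orthology of each isotig and under every GO term of its cell (Python 3.11.15, pandas 2.3.3, numpy 2.4.6, scipy 1.17.1; figures with matplotlib 3.10.9). Shares have exact Clopper-Pearson intervals and ratios exact conditional binomial intervals at 95%, and these steps were tested on simulated data. With 1 library per group, nothing was tested between groups, and a 2-fold ratio was used as a description. Alternatives covered the measure of amount, the denominator, abundant and short isotigs, hit strength, several orthologies per isotig, centring and the read and fold limits. Named were the 25 leading orthologies, the 10 leading GO terms per branch, the 5 leading orthologies of each of 23 lists, every digestion orthology with control reads, the 5 leading isotigs, and the 6 highest and lowest ratios per comparison among orthologies with at least 100 reads. The members and lists were chosen with earlier results of these data known, and name patterns were fitted to KEGG wording. Other genes and GO terms chosen after their values were seen are named as such. A table of RefSeq symbols could not be matched to isotigs.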

Additional observations from a re-analysis of the deposited data

How the results depend on the processing

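No paired analysis was possible because each group has 1 library. Of 74 alternative values, 18 stayed within the counting interval or within 1.5 times the count and 56 moved. The body wall to digestion ratio stayed above 1 in each of the 6 alternatives run for it. These 6 were chosen after seeing the data, as were all those that drop a named orthology or list. Melanoma-associated antigen p97, with 61488 control reads, is in none of the lists, and no alternative added it to either side. The 25 leading orthologies were picked anew in each setting. Of those named above, 11 were also leaders by summed RPKM and 17 without the 20 most abundant isotigs. With hits of at most 1e-10 it was 22, and with divided reads 23. Those named above held 8.55% of summed RPKM. The leaders of each setting held 10.2% of summed RPKM, 27.3% of reads with an orthology, 8.64% without the 20 most abundant isotigs and 13.7% with hits of at most 1e-10. They held 14.4% over isotigs with at least 10 control reads, 13.7% with reads divided among all orthologies of an isotig and 14.2% over isotigs of at least 300 bases. In the same order of settings, where they moved, the collagen and matrix list held 2.56%, 5.79%, 1.25%, 2.87%, 3.06% and 3.13%. The muscle list held 0.323%, 1.33%, 0.854%, 0.587% and, with divided reads, 0.734%. The body wall lists held 5.10%, 12.7%, 5.02%, 6.17%, 6.69%, 6.48% and 6.66%. The digestion lists held 0.466%, 2.23%, 0.503%, 1.11% and, with divided reads, 1.10%. Ribosomal proteins held 11.9% of RPKM, 15.5% of reads with an orthology, 9.92% without the 20 isotigs and 8.18% over isotigs with at least 10 reads.

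Without fibrillar collagen the matrix list held 0.927% and the body wall lists 4.53%; the matrix, turnover, muscle and ossicle lists alone held 4.0%. Muscle held 0.467% without myosin heavy chain. The digestion lists held 0.368% without cubilin and apolipoprotein B and 0.944% without trypsin. The body wall to digestion ratio was 11.0 by RPKM, 3.45 with the narrower body wall lists, 17.9 without cubilin and apolipoprotein B, 12.3 without these and fibrillar collagen, 5.58 with hits of at most 1e-10 and 5.88 with divided reads. Orthologies at least 2-fold higher in control than in dark numbered 169 with the median ratio set to 1, 331 with at least 100 reads and 1186 at a 1.5-fold limit, and lower ones 203, 4 and 152. Against light, the higher ones numbered 4 with at least 100 reads and 97 at 1.5-fold, and the lower ones 4 and 155. Counts of a few reads, unannotated isotigs and families sharing 1 name limit what a share says of a single gene.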
